A study of Homo sapiens with 4 samples.

Results

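The splicing regulators described here were 9 RNA-binding protein genes, of which *ESRP1*, *ESRP2* and *RBM47* are expressed mainly in epithelia and *RBFOX2*, *QKI*, *MBNL1*, *MBNL2*, *PTBP1* and *CELF1* have been tied to the exon choices of mesenchymal cells. They were chosen by symbol, and all 9 were found among the 16811 genes of the deposited table. Each gene was compared between 2 libraries of edited and 2 libraries of wild-type MCF12A cells, a non-tumorigenic human mammary epithelial line whose source label reads breast cancer cell line. The edited cells, labelled *C1orf132* KO, had lost the p2 promoter region of *C1orf132* through CRISPR/Cas9 editing. This gene is the host of miR-29b2 and miR-29c. The wild-type cells were unedited. Both were grown in the same medium with horse serum, EGF, hydrocortisone, cholera toxin and insulin. Edited colonies were grown from single sorted cells expressing GFP. Which colony was sequenced is not given in the sources used here, so the edited replicates may be a single clone, and clone and deletion cannot be told apart. The authors call the 2 libraries of each group biological replicates. Nothing in the labels says that replicates came from separate cultures, so the p-values measure the spread between these libraries.

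Alternative exons are chosen by RNA-binding proteins that bind near an exon and favour or block its use. ESRP1 and ESRP2 are the epithelial splicing regulatory proteins, which favour the epithelial exon pattern of transcripts such as *FGFR2*, *CD44*, *CTNND1* and *ENAH*. Both are lost in many settings of epithelial to mesenchymal transition (EMT). RBFOX2, QKI, MBNL1, MBNL2, PTBP1 and CELF1 act on many of the same exons, often in the opposite direction. The values analysed here are per gene and do not resolve exons or isoforms, so they give the level of each regulator and not the splicing that it carries out.

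The deposited values are a normalized expression signal, and how it was normalized is not given in the sources used here. They were taken to be scaled for transcript length, and levels and shares of different genes were set side by side on that assumption. The values summed to between 1444640 and 1655440 per library. The values of a gene were multiples of a common step, from which the value of 1 read in each library was taken. Its inverse, relative to edited replicate 1, was 1.12 for edited replicate 2, 0.930 for wild-type replicate 1 and 1.00 for wild-type replicate 2. This is the scaling between libraries in the deposited values, and the number of reads sequenced may differ from it. The groups were compared by limma on a log2(value + 1) scale over 9590 genes whose mean reached 10, and a call was a Benjamini-Hochberg adjusted p under 0.05. *RBM47*, with a lower mean, was tested in a like fit over all 16811 genes. The added 1 makes the change of low genes look smaller on this scale. With 2 libraries a group, the smallest p of an exact two-sided permutation test is 0.333, so each call rests on the variance that limma shares across genes. The groups rest on the labels, since *C1orf132* was not analysed here.

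Of the 9 regulators, 1 fell in the edited cells, 0 rose and 8 did not pass the test. The gene that fell was *ESRP1*, which kept 1.42% of its wild-type level. Among all 9590 genes tested, 4.2% were called lower and 2.89% higher, and in the fit over all genes 3.4% were called lower and 1.33% higher. An unadjusted p under 0.05 was found for 3095 of the 9590 genes, and at an adjusted p under 0.001 the only gene called was not a regulator of this group. The edited and wild-type values did not overlap for 6 of the 9 regulators. *ESRP1*, *RBM47* and *MBNL2* lay lower in both edited libraries than in both wild-type libraries, where 30.2% of all genes did so, and *ESRP2*, *QKI* and *PTBP1* lay higher, where 31.4% of all genes did so. The shares of regulators with separate groups were therefore close to those of the whole table.

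**Figure D1:**
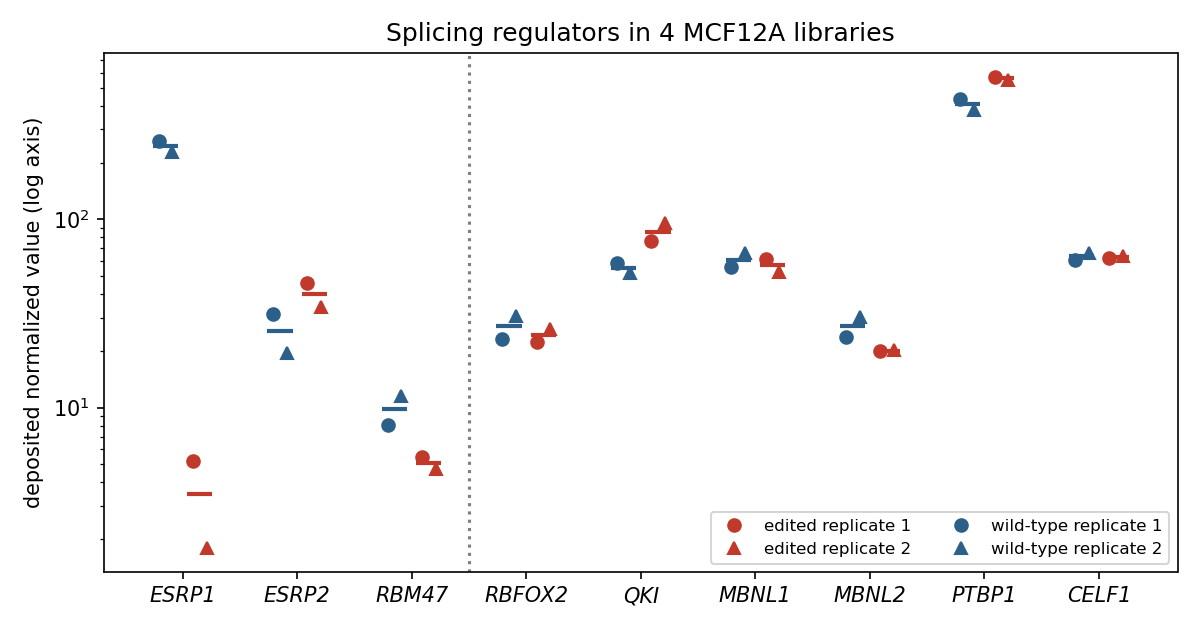
Deposited normalized value (log axis) of the 9 splicing regulators in each of the 4 libraries, with blue for wild-type and red for edited cells, circles for replicate 1, triangles for replicate 2 and a line at each group mean. *ESRP1* stood at 262 and 229 in the wild-type and at 5.19 and 1.79 in the edited libraries, while each of the other regulators stayed within 2-fold between group means.

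*ESRP1* lies on chromosome 8 from 94641174 to 94707466 (GRCh38.p14). Its value was 262 and 229 in wild-type replicates 1 and 2, and 5.19 and 1.79 in edited replicates 1 and 2. It was thus one of the higher regulators in wild-type cells and among the lowest in both edited libraries, with no overlap. The group means were 245 ± 23.2 in wild-type and 3.49 ± 2.41 in edited cells (SD, n = 2 each), a ratio of 70.3. The log2 fold change was -5.89 (SE 0.38, 95% interval -6.84 to -4.93, adjusted p = 0.00328 from limma), which ranked 11 from the lowest among the 9590 genes tested. The median of the 341 tested genes of its chromosome was 0.06 on the same scale. From the step of the gene, about 4375 and 4119 reads lay behind the wild-type values and about 93.3 and 36.0 behind the edited values. The edited cells therefore still gave a measurable signal of *ESRP1* transcripts. The reads carried no molecular identifiers and may count a molecule more than once, and fewer cells with the transcript cannot be told apart from less transcript per cell in bulk RNA. The call was lost when wild-type replicate 2 was left out (log2 fold change -5.98, limma adjusted p = 0.0833), and with wild-type replicate 1 left out the adjusted p was 0.0497.

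*ESRP2*, the close relative of *ESRP1*, lies on chromosome 16 from 68229033 to 68236127. Its value was 31.3 and 19.4 in wild-type replicates 1 and 2, and 46.1 and 34.0 in edited replicates 1 and 2. Both edited libraries lay above both wild-type libraries, but edited replicate 2 was near wild-type replicate 1. The ratio of the means was 1.58, with a log2 fold change of 0.66 (SE 0.28, 95% interval -0.04 to 1.37, adjusted p = 0.174 from limma), and the change did not pass the test. The median of the 459 tested genes of chromosome 16 was 0.27, and without wild-type replicate 2 the log2 fold change of *ESRP2* was 0.33.

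The balance between the paralogues differed widely between the groups. Their shares assume values scaled for transcript length. *ESRP1* made up 89.3% and 92.2% of the summed value of *ESRP1* and *ESRP2* in the wild-type libraries, and 10.1% and 4.99% in the edited libraries. The log2 ratio of *ESRP1* to *ESRP2* was 3.07 and 3.56 in wild-type and -3.15 and -4.25 in edited replicates, so the more abundant gene of the pair was *ESRP1* in both wild-type and *ESRP2* in both edited libraries. The summed value was 293 and 248 in wild-type cells and 51.3 and 35.8 in edited cells. Total *ESRP* signal was thus 6.21-fold higher in wild-type cells by group mean, a smaller gap than that of *ESRP1* alone.

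**Figure D2:**
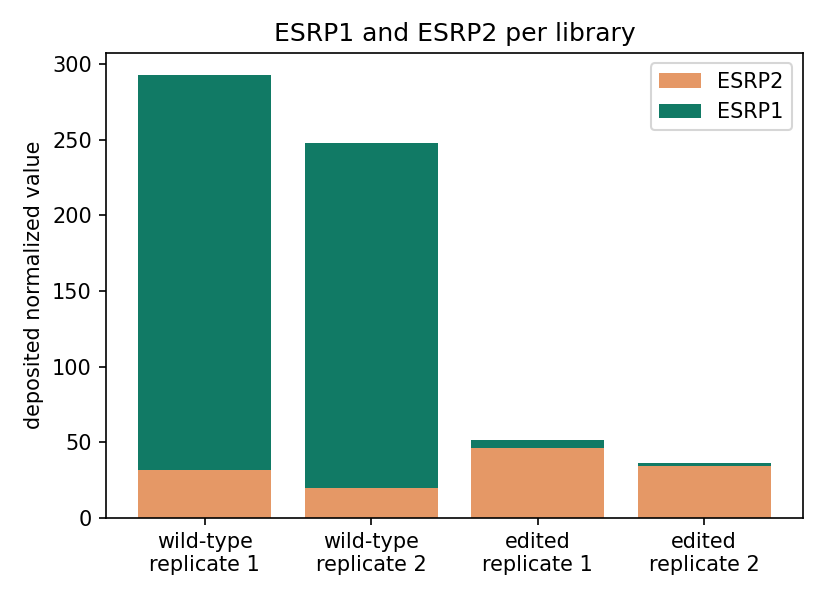
Stacked bars of the deposited normalized value of *ESRP2* (orange) and *ESRP1* (green) in each library, with the linear axis starting at 0. The bars reach 293 and 248 in the wild-type libraries, mostly from *ESRP1*, and 51.3 and 35.8 in the edited libraries, mostly from *ESRP2*.

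*RBM47*, an RNA-binding protein that also acts on epithelial exons, lies on chromosome 4 from 40423280 to 40630852. Its value was 8.11 and 11.6 in wild-type replicates 1 and 2, and 5.45 and 4.72 in edited replicates 1 and 2. Both edited libraries lay below both wild-type libraries, at 51.7% of the wild-type mean. The log2 fold change was -0.82 (SE 0.25, 95% interval -1.45 to -0.18), with an unadjusted p of 0.0212 and an adjusted p of 0.111 from limma over all genes, and the change did not pass the test. About 594 and 912 reads lay behind the wild-type and about 429 and 417 behind the edited values.

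RefSeq promoter windows on GRCh38.p14, each with 250 bases before and 50 after a start site, were matched for 5 of the 9 regulators (*RBM47*, *MBNL1*, *MBNL2*, *PTBP1* and *CELF1*), with 16 windows in all. They were searched on both strands for the E-box letters CACCTG and their reverse complement CAGGTG, which ZEB and SNAI repressors can bind. *ESRP1*, *ESRP2*, *QKI* and *RBFOX2* had no matched window and were not searched. At least 1 E-box was found in 7231 of 35116 windows of the table (20.6%) and in 1 of the 16 windows of the 5 matched regulators. That window belongs to an internal start of *RBM47*. Its 250 bases before the start are shown because it is the only regulator window that holds the letters, which are in capitals and begin 208 bases before the start, at chr4:40514582-40514831 on the minus strand:
RBM47: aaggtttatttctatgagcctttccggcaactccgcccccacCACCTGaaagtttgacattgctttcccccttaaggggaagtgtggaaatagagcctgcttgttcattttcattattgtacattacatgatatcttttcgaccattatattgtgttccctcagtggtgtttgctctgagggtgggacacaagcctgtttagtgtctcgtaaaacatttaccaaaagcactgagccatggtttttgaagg
A match of 6 letters is a description of the sequence and not a binding site, and binding was not measured in these libraries.

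Among the regulators tied to mesenchymal splicing, 0 of 6 passed the test in either direction, and their median log2 fold change was -0.06, against 0.09 over all genes tested. *QKI*, which encodes the Quaking protein, had the widest difference of the 6. Its value was 58.4 and 51.7 in wild-type replicates 1 and 2, and 76.5 and 95.6 in edited replicates 1 and 2. The edited libraries both lay above the wild-type ones, at a ratio of means of 1.56. The log2 fold change was 0.63 (SE 0.20, 95% interval 0.13 to 1.13, adjusted p = 0.102 from limma). *QKI* lies on chromosome 6 from 163414718 to 163578592, where the median of 364 tested genes was 0.23, and its change less that median was 0.40.

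*PTBP1*, the polypyrimidine tract binding protein that represses many exons, was the most abundant regulator in every library. Its value was 436 and 381 in wild-type and 573 and 551 in edited replicates 1 and 2. The edited libraries were again both higher, at a ratio of means of 1.37. The log2 fold change was 0.46 (SE 0.20, 95% interval -0.05 to 0.97, adjusted p = 0.183 from limma) and did not pass the test. It lies on chromosome 19 from 797452 to 812312, where the median of 597 tested genes was 0.22. With quantile and cyclic loess scaling the log2 fold change was 0.19 and 0.15.

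The muscleblind genes encode proteins that favour the exon patterns of differentiated cells. *MBNL2* had values of 23.7 and 30.2 in wild-type and of 19.9 and 20.3 in edited replicates 1 and 2. The groups were separate, and the SD was 0.250 among the edited and 4.61 among the wild-type libraries (n = 2 each). The log2 fold change of *MBNL2* was -0.40 (SE 0.19, 95% interval -0.88 to 0.08, adjusted p = 0.215 from limma). *MBNL2* lies on chromosome 13 from 97141834 to 97394120, where the median of 150 tested genes was -0.27, and its change less that median was -0.13. Without wild-type replicate 2 the log2 fold change of *MBNL2* was -0.23. *MBNL1* had values of 56.0 and 66.3 in wild-type and of 61.4 and 52.4 in edited replicates, which overlapped. The log2 fold change of *MBNL1* was -0.10 (SE 0.19, 95% interval -0.58 to 0.38, adjusted p = 0.748 from limma).

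*RBFOX2*, which binds UGCAUG and was among the first regulators tied to mesenchymal exons, had values of 23.1 and 30.8 in wild-type and of 22.2 and 26.2 in edited replicates 1 and 2. The groups overlapped, and the log2 fold change was -0.14 (SE 0.21, 95% interval -0.67 to 0.39, adjusted p = 0.683 from limma). *CELF1*, which binds GU-rich RNA, had the smallest difference of the 9, with values of 61.1 and 66.5 in wild-type and of 62.6 and 63.6 in edited replicates. Its log2 fold change was -0.01 (SE 0.17, 95% interval -0.44 to 0.41, adjusted p = 0.960 from limma). The intervals of *MBNL1*, *RBFOX2* and *CELF1* covered 0 and left room for changes up to their bounds.

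**Figure D3:**
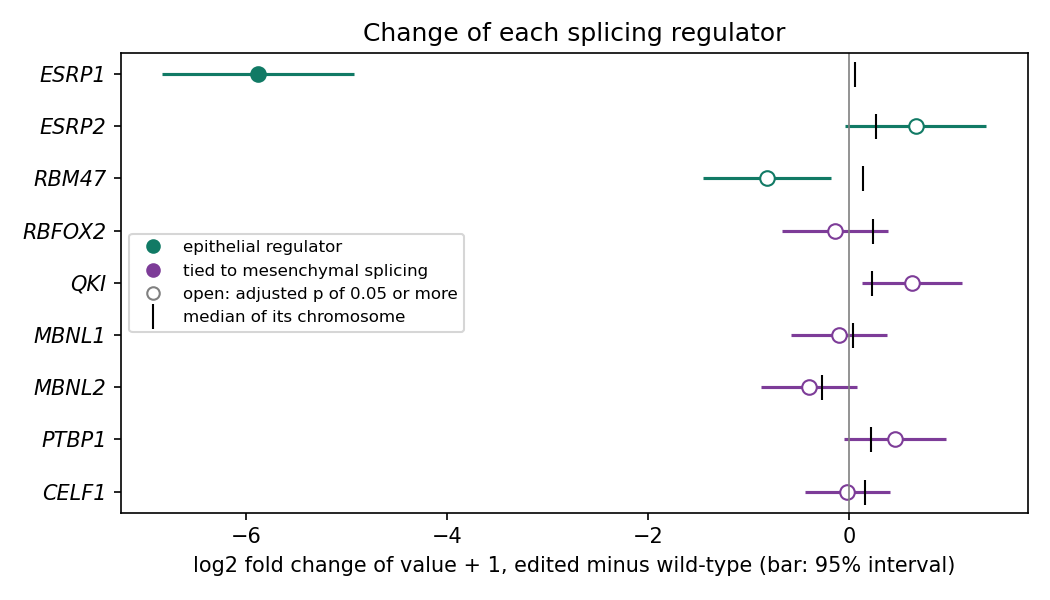
Log2 fold change of value + 1, edited minus wild-type, of each regulator with its 95% interval from limma; green marks epithelial regulators, purple those tied to mesenchymal splicing, filled circles an adjusted p under 0.05 and black ticks the median of the tested genes of the same chromosome. *ESRP1* lies at -5.89, and the other 8 lie between -0.82 and 0.66 with open circles.

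The order of the regulators by level differed between the groups, most of all for *ESRP1*. This order, too, assumes values scaled for transcript length. In wild-type cells *PTBP1* (mean 409) was followed by *ESRP1* (245), then *CELF1* (63.8), *MBNL1* (61.1) and *QKI* (55.0), then *MBNL2* (27.0), *RBFOX2* (27.0) and *ESRP2* (25.3), and last *RBM47* (9.84). The ranges of *CELF1* and *MBNL1*, of *MBNL1* and *QKI*, of *MBNL2* and *RBFOX2* and of *RBFOX2* and *ESRP2* overlapped between libraries, and the other neighbours were separate. In edited cells the order was *PTBP1* (562), *QKI* (86.1), *CELF1* (63.1), *MBNL1* (56.9), *ESRP2* (40.1), *RBFOX2* (24.2), *MBNL2* (20.1), *RBM47* (5.09) and *ESRP1* (3.49). The ranges of the last pair overlapped, and those of all other neighbours did not. *ESRP1* thus stood at rank 2 in wild-type and at rank 9 in edited cells. *QKI* moved from below *CELF1* to above it, with separate ranges in both groups, and *ESRP2* moved from rank 8 to rank 5.

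The mean log2(value + 1) of the 3 epithelial regulators less that of the 6 others was -0.53 and -0.78 in wild-type and -2.43 and -3.06 in edited replicates 1 and 2. The difference of the group means, edited minus wild-type, was -2.09. The mean level of the epithelial regulators differed by -2.01 and that of the others by 0.07, and the balance is the first less the second. Without *ESRP1* the difference was -0.15. It is given with no test, since the members were chosen with results known.

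Of 12 paralogues of the regulators, 4 were in the table and 0 of these passed the test. *PTBP3*, whose product overlaps with PTBP1 in the exons it represses, had values of 29.7 and 33.9 in wild-type and of 16.5 and 19.6 in edited replicates, with a log2 fold change of -0.79 (SE 0.19, adjusted p = 0.0627 from limma). *PTBP2*, the neuronal form, lay between 8.45 and 10.6 in all libraries. *PTBP1* made up 91.8% and 90.0% of the summed value of *PTBP1*, *PTBP2* and *PTBP3* in wild-type and 95.6% and 94.8% in edited replicates, so that its share was higher in both edited libraries. *MBNL3* was low throughout, from 0.859 to 3.07, and *MBNL1* made up 68.7% and 66.6% of the summed muscleblind value in wild-type and 74.6% and 71.3% in edited replicates. *CELF5* was low and overlapped between the groups.

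Of 28 further regulators of alternative exons, among them HNRNP and SR proteins, 24 were in the table and 0 passed the test in either direction. Their log2 fold changes were above 0 for 21 of the 24, with a median of 0.40 against 0.09 over all genes tested. Over genes with a mean of at least 50 the median was 0.18. With equal library totals 17 of the 24 were above 0, with a median of 0.28 against -0.03 over all genes tested. For 15 of the 24 both edited libraries lay above both wild-type libraries, where 31.4% of all genes did so. With quantile and cyclic loess scaling, 16 of 24 were above 0, the median was 0.22 and 0.16, and 1 gene (*RBM24*) was called higher. Without the variance trend, and with limma voom on estimated reads, 1 was called higher (*RBM24*) and 1 lower (*SRRM3*). *HNRNPM*, which competes with ESRP1 at shared exons, had values of 375 and 274 in wild-type and of 653 and 598 in edited replicates 1 and 2, with a log2 fold change of 0.96 (SE 0.24, adjusted p = 0.0681 from limma). These 3 genes were picked for mention after their values were seen.

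Genes whose exons are known to switch in EMT were examined at the level of the whole gene. All 28 listed genes were in the table, of which 2 fell, 0 rose and 26 did not pass. Among all genes, 4.2% were called lower in the fit with the filter on the mean and 3.4% in the fit over all genes. The median log2 fold change of the list was -0.18, against 0.09 over all genes tested. *FGFR2*, whose alternative IIIb and IIIc exons decide which FGF ligands it binds, had values of 13.0 and 15.8 in wild-type and of 4.70 and 4.27 in edited replicates (log2 fold change -1.48, SE 0.22, adjusted p = 0.0350 from limma over all genes). *GRHL1*, a grainyhead-like transcription factor, had values of 14.3 and 22.1 in wild-type and of 0.429 and 0.823 in edited replicates (log2 fold change -3.54, SE 0.30, adjusted p = 0.0138 from limma over all genes). The number called lower was 0 with wild-type replicate 1, wild-type replicate 2 or edited replicate 1 left out, and without edited replicate 2 it was 5, with 1 called higher. The well-known ESRP target transcripts *CTNND1* (log2 fold change -0.90, adjusted p = 0.0635), *CD44* (-0.85, adjusted p = 0.174) and *ENAH* (-0.13, adjusted p = 0.660) did not pass and are named after their values were seen. Their values in edited replicates 1 and 2 were 131 and 136 for *CTNND1*, 462 and 926 for *CD44* and 141 and 138 for *ENAH*. In wild-type replicates 1 and 2 they were 221 and 283 for *CTNND1*, 1273 and 1089 for *CD44* and 143 and 164 for *ENAH*.

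Transcription factors tied to the expression of the *ESRP* genes were called in both directions, with the calls upward lost in several alternatives. Of the 13 listed, 5 fell, 2 rose and 6 did not pass, with a median log2 fold change of -0.72. Of these 13, 6 had a mean of at least 10, where 4.2% of all genes tested were called lower and 2.89% higher. The other 7 were tested in the fit over all genes, where 3.4% were called lower and 1.33% higher. *GRHL2*, a grainyhead-like activator of epithelial genes, had values of 26.0 and 26.2 in wild-type and of 0.137 and 0.0460 in edited replicates (log2 fold change -4.64, adjusted p = 0.00653 from limma). *ELF3*, an epithelial ETS factor, had values of 681 and 633 in wild-type and of 50.7 and 35.1 in edited replicates (log2 fold change -3.93, adjusted p = 0.00328 from limma). *GRHL1*, given above, *KLF4* (log2 fold change -1.79, adjusted p = 0.0313) and *OVOL1* (-1.72, adjusted p = 0.0371) also fell. *ZEB1*, a repressor of epithelial genes that include *ESRP1*, had values of 0.333 and 0.927 in wild-type and of 5.83 and 6.80 in edited replicates (log2 fold change 2.19, SE 0.29, adjusted p = 0.0307, limma over all genes). *TWIST2* also rose (log2 fold change 1.64, adjusted p = 0.0447), and is named after its values were seen. The number called lower was 0 without wild-type replicate 2, 1 without wild-type replicate 1, 2 without edited replicate 1 and 4 without edited replicate 2. The number called higher was 0 whichever library was left out, and with a pseudocount of 0.1 it was also 0, beside 4 lower.

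**Figure D4:**
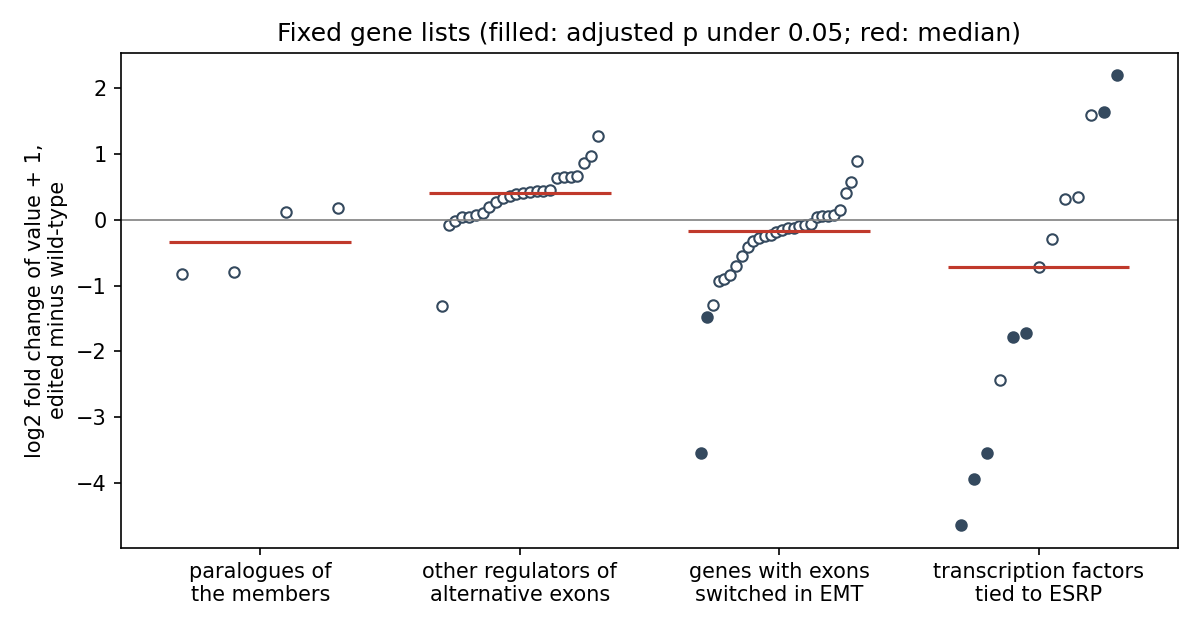
Log2 fold change of value + 1, edited minus wild-type, of every measured gene in 4 lists (4 paralogues, 24 other regulators, 28 genes with switched exons and 13 transcription factors), with filled circles at an adjusted p under 0.05 and red lines at the list medians. The other regulators sit mostly above 0 with no filled circle, and the transcription factors spread from -4.64 to 2.19.

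The genes whose profile was most like that of *ESRP1* were taken by the Euclidean distance of log2(value + 1), less the wild-type mean, over the 4 libraries. They were *A2ML1* (distance 0.866), *CDH1* (0.873) and *SPRR1B* (0.901), which encode a protease inhibitor, E-cadherin and a cornified envelope protein. *A2ML1* had values of 51.2 and 55.8 in wild-type and of 0.0156 and 0.0139 in edited replicates 1 and 2. *SPRR1B* had values of 45.4 and 54.9 in wild-type and of 0.553 and 0 in edited replicates 1 and 2. For these genes the added 1 hides how far the edited values lay below 1, so their likeness to *ESRP1* rests in part on it. *CDH1* had values of 150 and 123 in wild-type and of 3.89 and 1.54 in edited replicates. Its log2 fold change was -5.28, against -5.89 for *ESRP1*, and both genes had the lower value in edited replicate 2. The genes were picked on these same 4 values, so a shared fall follows from the choice. The genes most like *QKI* were *PARVA* (0.0844), *ABCC1* (0.0876) and AC002480.6 (0.0950), with log2 fold changes from 0.63 to 0.66. Such likeness over 4 libraries is a description.

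Marker genes of cell types were read beside these results. All markers found were among the 9590 genes tested, of which 4.2% were called lower and 2.89% higher. All 8 mammary epithelial markers were in the table, of which 4 fell (*EPCAM*, *CDH1*, *KRT17* and *TP63*), 1 rose (*KRT8*) and 3 did not pass. The summed value of these 8 was 4886 and 5683 in edited and 10933 and 20156 in wild-type replicates. Of 9 fibroblast markers, 3 were in the table (*COL1A1*, *DCN* and *FAP*), with a summed value of 30.5 and 225 in edited and 78.0 and 52.3 in wild-type replicates. Of these, *COL1A1* fell, and *DCN*, at 15.1 and 105 in edited and 7.42 and 1.09 in wild-type replicates, did not pass (adjusted p = 0.0974 from limma). Of 4 endothelial and 5 leukocyte markers, 0 and 2 were analysed here, and the latter (*CD14* and *ITGAM*, of which *ITGAM* fell) summed to 9.28 and 10.9 in edited and to 31.4 and 51.2 in wild-type replicates. The part of cell makeup in the fall of *ESRP1* was not tested.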

How the data were processed

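Poly(A)-selected RNA of 2 edited and 2 wild-type MCF12A libraries was sequenced single-end at 75 bases. In 1 table the authors deposited a normalized expression signal for 16811 gene symbols, taken here to be scaled for length and between libraries. The submitters' processing notes name Salmon, HISAT2 and hg38, while versions, annotation and the normalization are not given in the sources used here. Groups came from the labels, and all 4 value columns were used. The groups were compared over genes whose mean reached 10 (R 4.3.3, limma 3.58.1, eBayes with a variance trend, pseudocount 1), and listed genes under that mean in a fit over all genes. A check of the fit on simulated data required it to return the size of a planted change, and set no requirement on its p-values. Every regulator was named, with the called genes of each list in order of fold change up to 6 per list, direct paralogues, and the 3 genes most like *ESRP1* and *QKI*. The members and lists were chosen with earlier results of these data known. Read numbers were estimated from the shared step of each gene and transcript lengths of GENCODE version 44, so their absolute scale is approximate, and they cover counting error only. Coordinates and promoters came from RefSeq (GRCh38.p14). Pseudocounts, filters, scalings, a replicate block, the variance trend, a threshold of 0.001 and leaving out each library were tried as alternatives. Python 3.11.15 was used.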

Additional observations from a re-analysis of the deposited data

How the results depend on the processing

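The fall of *ESRP1* kept its direction in all 17 alternatives (log2 fold change from -6.46 to -4.91) and passed 0.05 in each test but that without wild-type replicate 2, with an adjusted p from 3.24e-05 to 0.0833. At an adjusted p under 0.001, 0 regulators, 1 gene lower and 0 genes higher were called over all genes. No regulator rose in any alternative. Leaving out 1 library at a time, the number of regulators called lower was 0 to 1, that of regulators called higher 0 to 0, that of all genes called lower 4 to 749 and that of all genes called higher 0 to 682, the lowest without wild-type replicate 2 and the highest without edited replicate 2. Without wild-type replicate 1, 37 genes were lower and 10 higher, and without edited replicate 1, 121 were higher. A group left with 1 library was assumed to vary like the other. At a mean of at least 50, where 4192 genes were tested, 191 were called lower and 228 higher. With the replicate block, 107 genes were lower and 26 higher, and *ESRP1* had an adjusted p of 0.0257, with 3 of the 13 transcription factors lower and 0 higher. The deviations of same-numbered libraries correlated at -0.14 over 9590 genes with only 2 pairs, so the numbers were not taken as pairs. With crossed numbers in the block, chosen after seeing the data, 422 genes were higher and 580 lower. On estimated reads (limma voom over 8571 genes, also chosen after seeing the data) 235 genes were higher and 371 lower, and *ESRP1* stayed called. Equal library totals moved the median of all genes by -0.12. The differences of *ESRP2*, *QKI* and *PTBP1* stayed above 0 and those of *RBM47* and *MBNL2* below 0 in all alternatives, but not at like size. *ESRP2* ranged from 0.33 to 0.99, *QKI* from 0.40 to 0.79, *PTBP1* from 0.15 to 0.56, *RBM47* from -1.05 to -0.55 and *MBNL2* from -0.57 to -0.13. The uncalled differences of *MBNL1*, *RBFOX2* and *CELF1* changed sign when libraries were left out, with ranges of -0.222 to 0.0180, -0.339 to 0.0615 and -0.0752 to 0.0456, each highest without wild-type replicate 2; *MBNL1* was also above 0 without edited replicate 2 (0.0105), and the cause was not tested. The difference in the balance of epithelial and other regulators was -1.70 with a pseudocount of 5, -0.15 without *ESRP1*, -3.42 without *ESRP2* and -2.68 without *RBM47*. The lowest depth behind an *ESRP1* value was about 36.0 reads, in edited replicate 2.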
